A study of Populus ussuriensis with 12 samples.

Results

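The excess Zn response of roots overexpressing PuHSFA4a was followed across all measured genes of the poplar *Populus ussuriensis*. It rests on 6 of the 12 root mRNA libraries of the series, chosen by their titles, with 3 libraries titled PuHSFA4a-OE_Zn (OE Zn) and 3 titled PuHSFA4a-OE_control (OE control). The labels give 1 week of pre-culture and then 2 weeks of treatment for both groups. OE Zn plants were kept on medium with 1.2 mM ZnSO4, and OE control plants were kept under control condition. The labels attach the ZnSO4 medium to every library, but it was taken to describe the Zn groups alone. All plants were grown in vitro, and roots were taken at 21 days of age. The other 6 libraries are of wild-type roots (WT), with 3 on Zn (WT Zn) and 3 under control condition (WT control), and serve here for the shared estimate of spread and for the comparison of responses. The labels give neither the promoter of the transgene, nor the number of transgenic lines, nor whether plants were pooled, nor whether replicate libraries are of separate plants. The p-values therefore measure only the spread between libraries, which may be technical.

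Zinc is an essential metal, a structural and catalytic part of many proteins, and becomes toxic to roots in excess, where it competes with other metals such as iron and goes along with oxidative stress and slower root growth. Heat shock factors are transcription factors that bind heat shock elements in promoters, and those of class A act as activators. Members of the HSFA4 group are known from Arabidopsis, rice and wheat for roles in oxidative and metal stress.

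The files list 39602 genes by ID and position and pair no ID with a name, so no function is given to the genes below and the root label could not be checked against root or leaf markers. Total counts of the 6 OE libraries ran from 15594001 to 19534619, with 28724 to 29267 genes detected by 1 count or more. Levels are in CPM, counts per library total after scaling, and 3 counts, the limit that a count of 0 allows for counting error alone, were 0.154 to 0.192 CPM in these libraries. After low counts were filtered out, 25871 genes were tested. In whole-root RNA, fewer cells of a type and less RNA per cell cannot be told apart.

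The overexpressed gene was looked at first. The files do not mark it. Potri.011G071700.v3.0, on the minus strand of chromosome 11 from 6828550 to 6830854 (all positions are those of the authors' files), was taken for it; that assignment comes from general knowledge and was not made from the data. It stood at 267, 239 and 266 CPM in OE Zn, against 331, 347 and 340 CPM in OE control. All 3 OE Zn libraries lay below all 3 OE control libraries, and all 6 OE libraries lay above the 6 WT libraries. In WT Zn it stood at 33.1, 32.5 and 33.1 CPM, against 129, 165 and 37.1 CPM in the libraries labelled WT control. WT control 1 and 2 thus stood above the 4 other WT libraries at this locus. The log2 fold change for Zn in OE was -0.40 (SE 0.37, edgeR quasi-likelihood adjusted p = 0.511), so the lower level on Zn did not pass in the fit of all 12 libraries, whose spread at this locus includes the WT control libraries. Permuting the OE libraries, 3 against 3, gave an exact two-sided p = 0.1, the smallest that design allows. With the 6 OE libraries alone the same difference passed (log2 fold change -0.40, edgeR adjusted p = 0.00958), as it did without WT control 1 and 2 (0.0033) and without WT control 3 (0.00859). Where WT control 1 and 2 are left out, the lone WT control library is taken to vary as the other groups do. Over the 22 other settings that adjusted p ran from 0.0033 to 0.685, and 3 of them called the locus.

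Excess Zn changed gene expression widely in OE roots. Of 25871 genes tested, 2203 rose (8.52%) and 2210 fell (8.54%) on Zn, while 21458 failed the test, the edgeR quasi-likelihood F-test with a Benjamini-Hochberg adjusted p under 0.05. The scaling sets the bulk of genes near 0, so the near balance of the 2 counts is relative to that centre. Single libraries moved the counts by over 1.5 times, to 1023 and 1177 without OE control 2, 1311 and 1430 without OE control 3, 1265 and 1424 without OE Zn 1 and 1324 and 1418 without OE Zn 2. At an unadjusted p under 0.05 there were 8172 genes. The level of 9525 genes (36.8%) did not overlap between OE Zn and OE control, and 5170 of these did not pass the test. Of the genes that passed, 2178 of those that rose and 2177 of those that fell had no overlap.

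**Figure D1:**
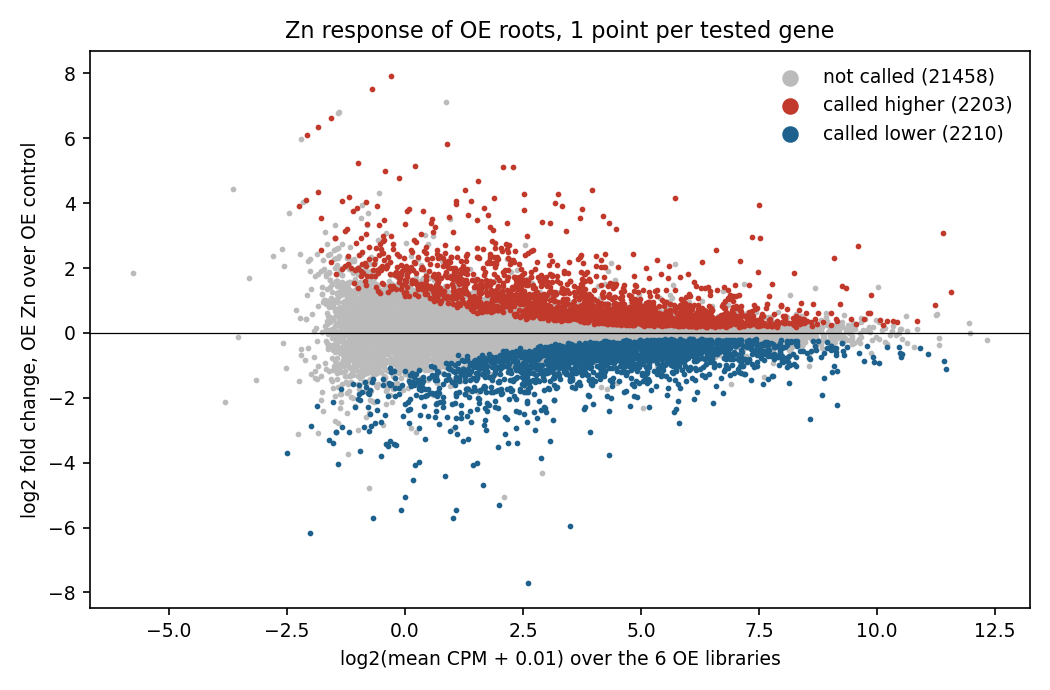
Each point is 1 of 25871 tested genes, with the log2 of its mean CPM over the 6 OE libraries (plus 0.01) on the x axis and its log2 fold change, OE Zn over OE control, on the y axis. Red points are the 2203 genes called higher, blue points the 2210 called lower and grey points the 21458 not called; the grey band of genes not called narrows toward the right, where levels are high.

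Most changes were modest. The median log2 fold change of the genes that rose was 0.67, a 1.59-fold higher level, with an interquartile range of 0.40 to 1.27. The median of the genes that fell was -0.66, a 1.58-fold lower level, with an interquartile range of -1.06 to -0.42. The median over all tested genes was 0.0023. A log2 fold change of at least 1 was reached by 745 genes that rose, and one of -1 or less by 628 that fell. Changes of 2 or more on the log2 scale in either direction were reached by 222 genes that rose and 140 that fell, and changes of 3 or more by 70 and 44. The large changes were thus more often increases, while the moderate ones between 0.5 and 1 held 662 genes that rose and 825 that fell.

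The direction of the response went with the level of the gene. Tested genes were divided into 5 level classes of equal size by their mean FPKM, the authors' level per transcript length, over the 12 libraries. In the lowest class (median 1.09 FPKM) 399 of 5175 genes rose, 7.71%, and 217 fell, 4.19%. In the highest class (median 51.0 FPKM) 573 of 5174 rose, 11.1%, and 669 fell, 12.9%. Genes that rose outnumbered those that fell in the lowest 2 classes, and the opposite held in the upper 3. The size of the called changes also went with level. Among genes that rose the median log2 fold change was 1.56 in the lowest class and 0.39 in the highest, and among those that fell it was -1.61 in the lowest class and -0.53 in the highest. The median SE of the log2 fold change was 0.40 in the lowest class, with a median of 147 counts per gene summed over the 6 OE libraries, and 0.0903 in the highest, with 8500.0 counts. In the lowest class 334 of the 399 genes that rose and 183 of the 217 that fell changed by at least 1 on the log2 scale. The SE holds both counting error and the spread between libraries, and the part of depth in the shares and sizes was not tested.

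**Figure D2:**
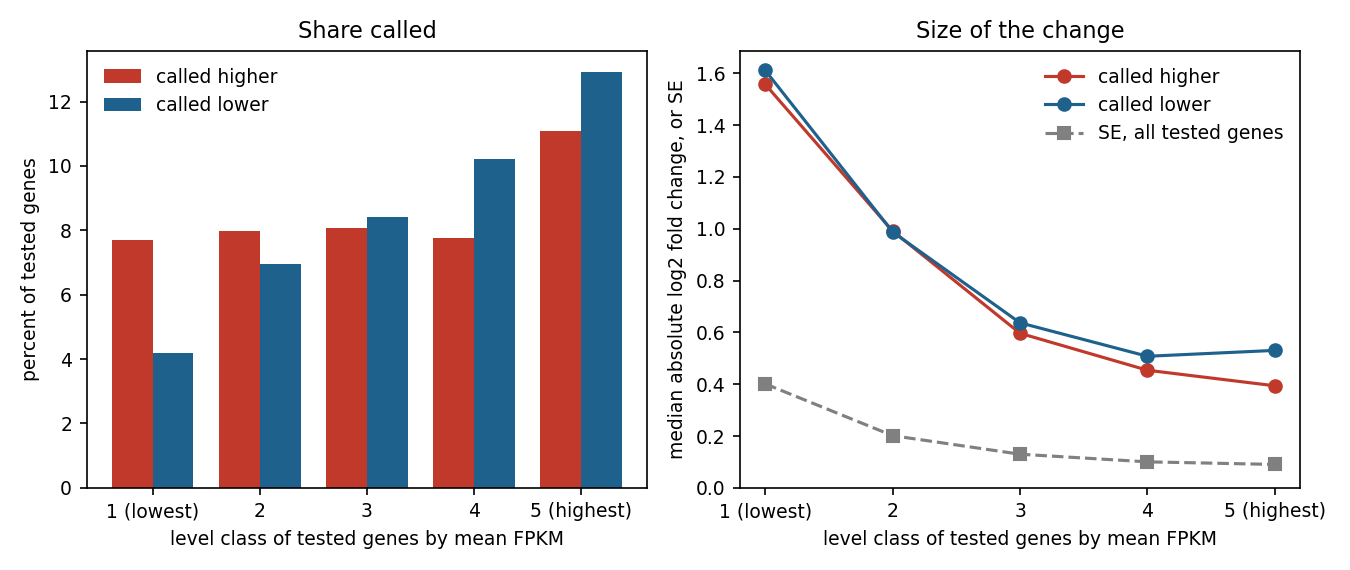
Tested genes in 5 equal level classes by mean FPKM over the 12 libraries, from the lowest to the highest. Left, bars give the percent of genes called higher (red) and lower (blue) in OE Zn; the blue share climbs from 4.19% to 12.9%. Right, lines give the median absolute log2 fold change of the called genes, and the dashed line the median SE of all tested genes, which falls from 0.40 to 0.0903.

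The response was also measured as a share of the pool of transcripts. Genes that rose held 13.4%, 14.5% and 13.3% of all counts in OE Zn, against 9.21%, 8.56% and 8.98% in OE control. Genes that fell held 9.88%, 9.51% and 9.88% in OE Zn, against 14.3%, 15.8% and 15.2% in OE control. These libraries chose the 2 sets, which fixes the direction of the shift and can enlarge it. Summed over the genes that rose, the mean level differed by 47675 CPM, and 88 of the 2203 genes made up 50% of that sum. For the genes that fell the sum was 53734 CPM, and 118 genes made up 50% of it. The 10 largest differences made up 26.6% of the first sum and 17.0% of the second.

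The most abundant transcripts were also counted. Among the 100 genes with the highest mean FPKM in OE Zn, 19 rose, 16 fell and 65 did not pass or were not tested. Among the 100 highest in OE control, 10 rose and 27 fell. Over all tested genes the shares were 8.52% and 8.54%, and in the highest level class, which is nearer in level, they were 11.1% and 12.9%. Ranking by the level in OE Zn favours genes that rose, and ranking by the level in OE control favours genes that fell. Both sets of 100 shared 82 genes.

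The genes named next have the largest differences in mean CPM in each direction among called genes with at least 5 CPM and no overlap between OE Zn and OE control. These libraries chose them, so their changes are a description. None of the 4 overlaps another gene in the files.

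Potri.013G101000.v3.0 (chromosome 13, 11347121 to 11349338, minus strand, transcript length 1495 bases) had the largest increase. It stood at 3087, 7822 and 3513 CPM in OE Zn, against 574, 528 and 614 CPM in OE control. The lowest OE Zn library was thus far above the highest OE control library, and OE Zn 2 stood above the other 2. The log2 fold change was 3.07 (SE 0.53, edgeR adjusted p = 0.00433), an 8.41-fold higher level, and 2.53 without OE Zn 2. By mean FPKM it ranked 5 of all genes in OE Zn and 101 in OE control. This 1 gene made up 8.88% of the summed increase. In WT the gene also rose, with 6399, 8299 and 17929 CPM in WT Zn and 1332, 865 and 417 CPM in WT control (log2 3.64, SE 0.55, edgeR adjusted p = 0.000969). The difference between the OE and WT responses was -0.57 (SE 0.70, edgeR interaction adjusted p = 0.891).

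Potri.001G102400.v3.0 (chromosome 1, 8187840 to 8188878, minus strand, transcript length 1039 bases) was at 4216, 3662 and 4962 CPM in OE Zn, against 2127, 1563 and 1619 CPM in OE control. All OE Zn libraries were higher, and OE control 1 was the highest of the controls. The log2 fold change was 1.27 (SE 0.17, edgeR adjusted p = 0.000638), a 2.42-fold higher level. In WT the same gene had 5037, 5413 and 5154 CPM on Zn, against 1222, 1537 and 999.9 CPM in WT control, a log2 change of 2.05 (SE 0.17, edgeR adjusted p = 2.12e-05). Its response was smaller in OE by 0.78 on the log2 scale (interaction -0.78, SE 0.23, edgeR unadjusted p = 0.00545), which did not pass adjustment over all genes (adjusted p = 0.779).

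Potri.005G172400.v3.0 (chromosome 5, 18771145 to 18775080, minus strand, transcript length 3035 bases) had the largest decrease. Its level was 1694, 1795 and 1875 CPM in OE Zn, against 3604, 4055 and 3824 CPM in OE control. The replicates were close together in both groups, which lay far apart. It fell by 1.10 on the log2 scale (SE 0.0863, edgeR adjusted p = 3.04e-05), a 2.14-fold lower level, and ranked 95 by mean FPKM in OE Zn and 24 in OE control. The WT log2 fold change was -1.27 (SE 0.0866, edgeR adjusted p = 6.65e-06), and the interaction was 0.17 (SE 0.12, edgeR adjusted p = 0.799).

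Potri.016G015500.v3.0 (chromosome 16, 840589 to 842654, minus strand, transcript length 1940 bases) was at 2108, 2434 and 1333 CPM in OE Zn, against 3572, 3581 and 3494 CPM in OE control. The control libraries agreed closely, and the OE Zn libraries were spread, with OE Zn 3 the lowest. The log2 fold change was -0.86 (SE 0.17, edgeR adjusted p = 0.00601), a 1.81-fold lower level, and was -1.04 when OE Zn 2 was left out and -0.64 when OE Zn 3 was. In WT it was -0.89 (SE 0.17, edgeR adjusted p = 0.00243), and the interaction was 0.036 (SE 0.24, edgeR adjusted p = 0.983).

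**Figure D3:**
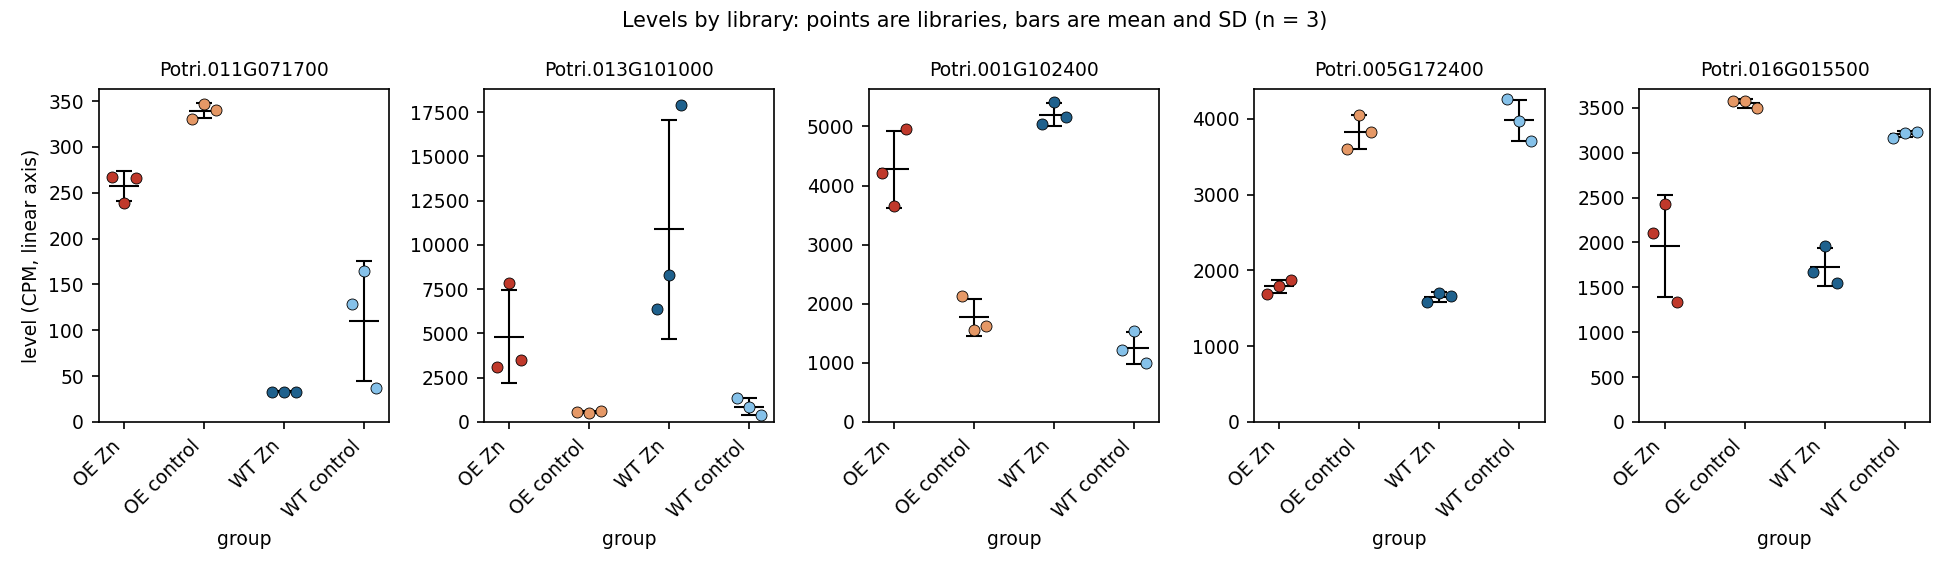
Level in CPM (linear axis from 0, own scale in each panel) of the locus taken for the overexpressed gene (left) and of the 4 genes with the largest CPM differences, in OE Zn, OE control, WT Zn and WT control. Points are libraries, and bars give the mean and SD (n = 3 each). At the left locus all 6 OE libraries lie above the 6 WT libraries, and in the other 4 panels OE Zn does not overlap OE control.

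At the edge of detection, 31347 of 39602 genes had a count in some OE library. Of these, 104 had counts in all 3 OE Zn libraries and in no OE control library. The reverse, counts in all 3 OE control libraries and in no OE Zn library, held for 50. Only 9 of the 104 were tested, with 5 called higher, and 1 of the 50 was tested and called lower. Total counts were 18142128, 19391028 and 19534619 in OE Zn, against 18267159, 18216326 and 15594001 in OE control. The part of depth in the 2 numbers was not tested. Summed over the 3 libraries, the median was 8 counts in the first set, with a highest of 93, and 7 counts in the second, with a highest of 31. The same pattern held in the WT libraries for 13 of the 104 and for 7 of the 50. How many of all genes show it in WT was not counted, so these overlaps have no background and were not tested.

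Called genes lay on all 19 chromosomes. Gene IDs are of the *P. trichocarpa* annotation, and whether gene order and structure are the same in *P. ussuriensis* was not checked, here or in the next paragraphs. By chromosome, 14.7% of 852 tested genes passed on chromosome 17, the lowest share, and 21.1% of 941 on chromosome 15, the highest, against 17.1% of all tested genes. On chromosome 15, 116 genes rose, 12.3%, and 83 fell, 8.82%. On chromosome 8 the balance was the other way, with 111 genes that rose, 7.22%, and 161 that fell, 10.5%. On chromosome 17, 78 rose and 47 fell. Of the 192 tested genes that the files name as new, 3 rose and 11 fell, both under the 8.52% and 8.54% of all tested genes.

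Neighbouring genes shared a direction slightly more often than the overall shares. Of 2169 genes that rose and had a next tested gene on one of the 19 chromosomes, 230 were followed by another that rose, 10.6%, against 8.52% of all tested genes. Of 2169 that fell, 261 were followed by another that fell, 12.03%, against 8.54%. The next gene went in the opposite direction for 7.98% of genes that rose and 6.78% of genes that fell. These shares were not tested. Runs of at least 4 successive tested genes called in the same direction numbered 6 for increases, with 25 genes, and 9 for decreases, with 42 genes.

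The run with the largest median change held 6 genes on chromosome 11 from 17680788 to 17969760, all lower on Zn, with log2 fold changes from -3.38 to -2.40. Their summed level was 5.56, 4.45 and 5.62 CPM in OE Zn, against 24.2, 45.04 and 43.5 CPM in OE control. The OE Zn libraries lay far below all controls, and OE control 1 was the lowest control. Of these 6 genes 5 were also lower in WT, where the sum was 6.19, 5.97 and 2.56 CPM in WT Zn and 35.5, 42.02 and 45.9 CPM in WT control. A run of 4 genes on chromosome 4, from 19827673 to 19866353, rose with log2 fold changes from 1.33 to 3.85. Its sum was 208, 249 and 187 CPM in OE Zn, against 103, 52.3 and 73.1 CPM in OE control, again with OE control 1 the nearest to the Zn libraries. All 4 genes were also higher in WT. Being called in WT too was usual: only 433 of all 2203 genes that rose in OE and 434 of all 2210 that fell were not called in WT. Runs were picked after their values were seen, and whether their genes are near-identical copies that share reads was not tested.

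In gene structure, genes that rose had a median transcript length of 1844 bases, those that fell 1775 bases and those not called 1845 bases. The locus was exactly as long as the transcript, as in a gene with no intron, for 9.67% of genes that rose, 12.4% of genes that fell and 11.1% of those not called. The locus overlapped that of another gene for 12.7% of genes that rose, 11.8% of genes that fell and 14.6% of those not called. An overlap with a gene on the opposite strand was found for 213 of 2203 genes that rose and 205 of 2210 that fell. It was also found for 2506 of the 21458 not called. Reads of such pairs cannot be told apart unless strand was used in counting, and the strand setting is not known from the labels.

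The 6 libraries did not weigh equally in the response. The median absolute difference of log2 level over tested genes was 0.145, 0.160 and 0.191 between OE Zn libraries and 0.170, 0.166 and 0.142 between OE control libraries. Between an OE Zn and an OE control library it ran from 0.207 to 0.283. OE control 1 was nearer to the Zn libraries (0.218, 0.243 and 0.207) than OE control 2 was (0.260, 0.283 and 0.246), with OE control 3 between (0.237, 0.253 and 0.236). Of the genes called without OE control 2, 996 that rose and 1161 that fell were among those called with all libraries. Without OE control 1, 1995 genes rose and 2183 fell, and 1645 and 1860 of these were among those called with all libraries. Without WT control 1 and 2, which enter through the shared spread, the scaling and the low-count filter, 2111 genes rose and 2087 fell.

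Genes called in WT moved in the same direction in each OE Zn library at the median. The contrast that chose them compared WT libraries alone. The OE libraries entered these calls only through the shared spread, the scaling and the low-count filter. For the 3970 genes higher in WT Zn (15.3% of tested genes), the median log2 level relative to the mean of OE control was 0.37, 0.42 and 0.34 in the OE Zn libraries, against 0.062, -0.060 and -0.0037 in the OE control libraries. For the 3760 genes lower in WT Zn (14.5%), it was -0.35, -0.44 and -0.34 in OE Zn, against -0.071, 0.068 and 0.0063 in OE control. OE Zn 2 was the furthest from the controls in both sets, and OE control 1 was the control nearest to the Zn libraries in both. No OE Zn library overlapped the OE control libraries in either set.

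Whether OE roots responded differently from WT roots was tested as the difference between the OE and WT Zn effects, their interaction. With the edgeR quasi-likelihood test 0 of 25871 genes passed adjustment, 0%, while 1627 genes, 6.29%, had an unadjusted p under 0.05. The count was also 0 with limma-voom, 5 with DESeq2 and 1 with the newer quasi-likelihood method of edgeR. The median SE of the interaction over the genes called in OE was 0.20 on the log2 scale, beside median changes of 0.67 and -0.66 in OE itself.

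The sizes of the responses were then set side by side over genes chosen from both genotypes with equal weight. For the mean of the OE and WT Zn effects, 5323 genes rose (20.6%) and 5032 fell (19.5%). Over the genes that rose, the median log2 fold change was 0.43 in OE and 0.54 in WT. Over those that fell it was -0.40 in OE and -0.50 in WT. Of all 10355 genes, 70.4% had the smaller absolute change in OE, against 61.8% of all tested genes. An unadjusted interaction p under 0.05 was found for 945 of them, 9.13%, and the change was smaller in OE for 828 of these and larger in OE for 117. Over all tested genes the corresponding counts were 1260 and 367.

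The smaller change in OE was seen across effect sizes, with an exception among the strongest decreases. Among the 204 genes with a mean log2 effect of 2 to 3, the median was 2.07 in OE and 2.63 in WT. Among the 114 genes at 3 or more it was 3.48 in OE and 4.30 in WT, and 74.6% had the smaller change in OE. Among the 118 genes from -3 to -2 it was -2.22 in OE and -2.51 in WT. Among the 51 genes below -3 it was -3.38 in OE and -3.54 in WT, and 51.0% had the smaller change in OE. Genes are not independent replicates, and no p-value is given for these shares.

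**Figure D4:**
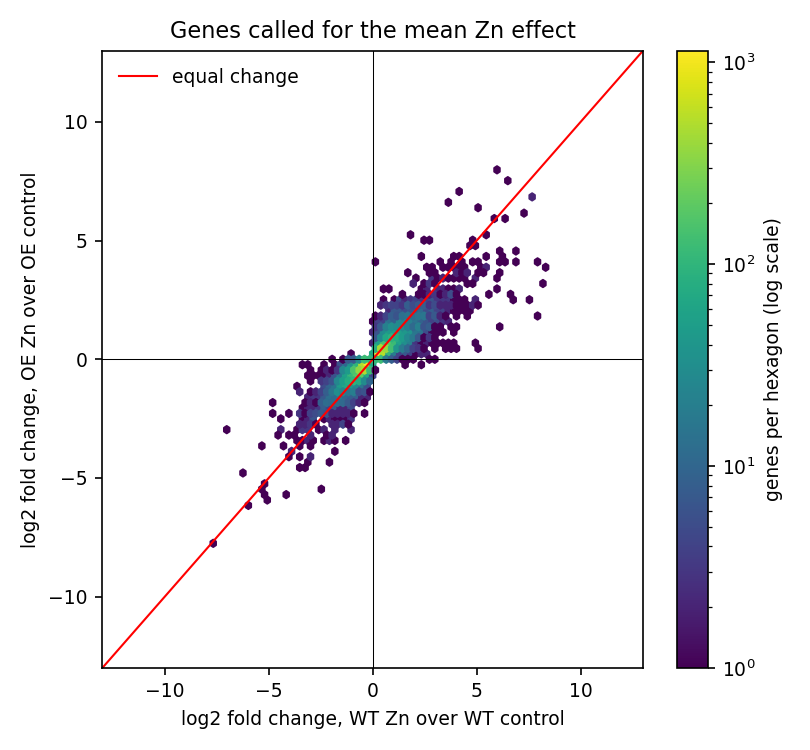
The log2 fold change for Zn in OE (y axis) against that in WT (x axis) for the 10355 genes called for the mean of the Zn effects; colour gives the number of genes per hexagon on a log scale and the red line marks equal change. Most genes lie nearer to 0 in OE than in WT, 70.4% in all.

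Single libraries moved the share with a smaller change in OE. It was 63.8% without OE control 1, with 484 genes smaller and 202 larger in OE at an unadjusted interaction p under 0.05, and 64.3% without OE Zn 3, with 687 and 206. Without OE Zn 1 the share was 69.8%, with 528 and 98 genes. It was 72.6% without WT control 1, 74.2% without WT control 2 and 68.6% without WT control 3. Without WT control 1 and 2 together it was 80.3%, but there the WT Zn effect rests on 1 control library, whose own spread cannot be seen. By library, the median deviation of the 5323 genes that rose from the mean of the 12 libraries was 0.20, 0.24 and 0.16 in OE Zn, against -0.12, -0.24 and -0.18 in OE control. It was 0.23, 0.22 and 0.25 in WT Zn, against -0.27, -0.23 and -0.29 in WT control. For the genes that rose, OE control 2 thus lay among the WT control libraries and OE control 1 the furthest from them. OE Zn 2 lay among the WT Zn libraries for these genes. For the 5032 genes that fell, OE Zn 2 stood at -0.25, beyond the WT Zn libraries at -0.21, -0.21 and -0.24.

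**Figure D5:**
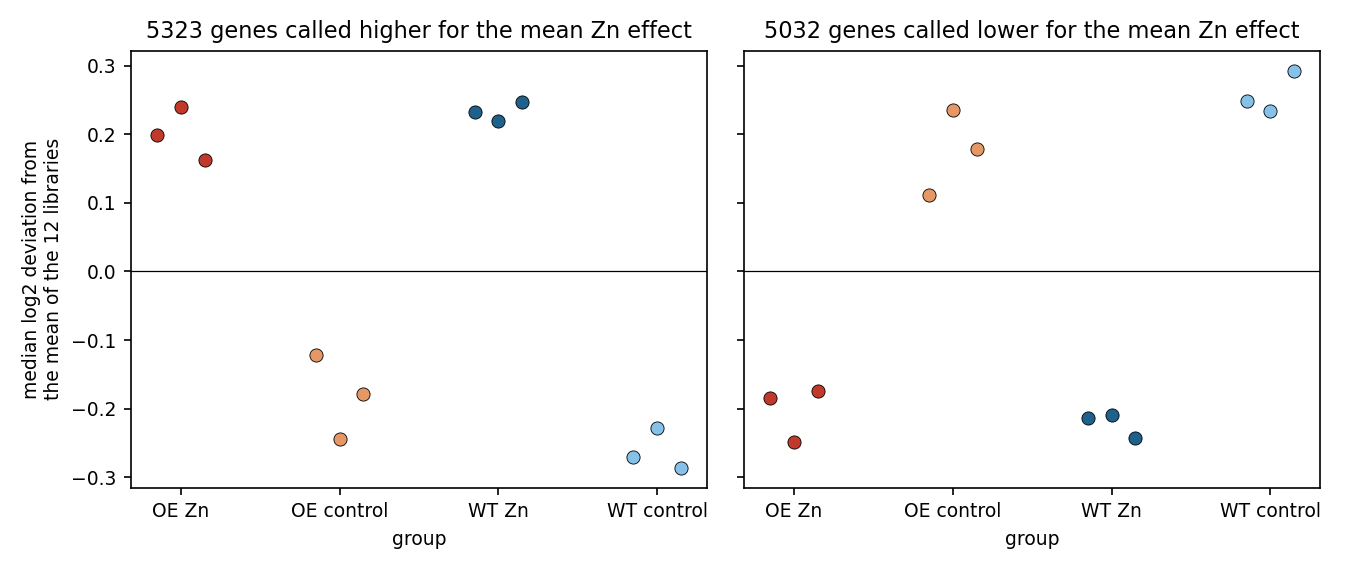
Median log2 deviation from the mean of the 12 libraries for the genes called higher (left) and lower (right) for the mean of the Zn effects, with 1 point per library in OE Zn, OE control, WT Zn and WT control. OE control 1 (the first OE control point, -0.12 on the left) is the control library nearest to 0 in both panels.

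Genes called in 1 genotype alone moved in the same direction in the other at the median. The 433 genes that rose in OE and were not called in WT had a median log2 fold change of 0.70 in OE and 0.30 in WT. The 434 that fell in OE and were not called in WT had -0.59 in OE and -0.25 in WT. Conversely, the 2199 genes called higher in WT and not in OE had 0.23 in OE and 0.52 in WT. The way these sets were chosen makes the called genotype's change the larger, and no gene passed the edgeR quasi-likelihood test of the difference, where DESeq2 called 5 of all tested genes and the newer edgeR method 1.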

How the data were processed

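Root libraries were made with a TruSeq RNA kit, per the labels' protocols. Per the submitters' processing notes, TopHat2 2.1.1 and HTSeq 0.6.0 were used. Neither genome build nor strand setting is given in the sources used here; gene IDs are of the *P. trichocarpa* annotation v3.0. The deposited counts, all whole numbers, were tested as deposited and taken to be the authors' estimated counts. For 64.1% to 65.7% of detected genes they equal, within 0.02, the value implied by the authors' normalized signal column. For 30.7% to 32.1% they are 1 above it. These shares do not show how the counts were made, and whether they are direct read counts is not known. The deposited FPKM values, made by the authors, served only to compare levels between genes.

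Counts were tested with edgeR 4.0.16 in R 4.3.3: filterByExpr, TMM scaling, 1 fit of 4 group means over 12 libraries with 8 residual degrees of freedom, robust quasi-likelihood F-tests and Benjamini-Hochberg adjustment at 0.05. CPM values use TMM-scaled library totals, log2 levels add 0.5 CPM, and an SE is |log2 fold change| / sqrt(F). Libraries were grouped by title, and replicate numbers follow the order of deposit. No replicate pair of OE libraries agreed within sampling noise (chi-square per degree of freedom 5.52 to 20.2). WT pairs gave 7.41 to 31.5, and the part of this spread in the smaller changes in OE was not tested. The comparisons were Zn in OE, the interaction with genotype and, added after values were seen, the mean of the OE and WT effects.

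The named genes are the locus taken for PuHSFA4a and the 2 higher and 2 lower genes with the largest difference in mean CPM, among called genes with at least 5 CPM and no overlap. The comparison and this rule were chosen with earlier results of these data known. Gene lists by function and marker lists could not be filled, since no ID is paired with a name.

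On simulated counts for Zn in OE with 25634 genes, correct calls were made for 23 of 67 genes with a 1.5-fold change. They were made for 37 of 67 with a 2-fold change and for 58 of 66 with a 4-fold change. Of 25434 genes without a change, 7 were called. Far fewer genes changed there than the 17.1% called in the real data, and all other genes had 1 mean across groups. The adjusted p depends on the share of changed genes, so these rates are not those of the real data. Alternatives were DESeq2 1.42.0, limma-voom (limma 3.58.1), median-ratio scaling, other low-count filters, the OE libraries alone, omission of single libraries or of WT control 1 and 2, counts taken from the normalized column, a minimum log2 fold change of 1 and, added later, the newer quasi-likelihood method.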

Additional observations from a re-analysis of the deposited data

How the results depend on the processing

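The numbers of genes called for Zn in OE stayed within 1.5 times of 2203 higher and 2210 lower with DESeq2 (2587 and 2604), limma-voom (2090 and 2121), median-ratio scaling, no filter, a 1 CPM filter, the 6 OE libraries alone (2052 and 2044), without WT control 1 and 2, with the implied counts and with the newer quasi-likelihood method. A minimum absolute log2 fold change of 1 gave 745 and 628. Leaving out each of the 12 libraries gave 1023 to 2273 higher and 1177 to 2497 lower. The interaction count of 0 became 5 with DESeq2 and 1 with the newer method, and was 0 to 1 when each library was left out. The log2 fold change of the PuHSFA4a locus was -0.35 to -0.44 over the omissions of single libraries; it was -0.40 and passed with the 6 OE libraries alone and without WT control 1 and 2. The 4 named genes were called under every setting tried, except that Potri.016G015500.v3.0 (-0.86) lies under the minimum of 1. Gene lists were not run, since they hold no gene. No paired analysis was possible because the titles number the libraries serially and give no shared replicate numbers. Precision was lowest for weakly expressed genes, with a median SE of 0.40 in the lowest FPKM class, and the part of depth in it was not tested.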
